A study of Homo sapiens with 6 samples.

Results

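The genes described here encode the amino acid transporter families SLC1, SLC3, SLC6, SLC7, SLC36, SLC38 and SLC43 of human cells. Members were the rows whose platform gene symbol starts with SLC1A, SLC3A, SLC6A, SLC7A, SLC36A, SLC38A or SLC43A followed by a number. The rule reads symbols alone, but the families were picked with earlier results of these arrays known. The rule took 60 gene symbols, each with 1 probe set, of the 21448 probe sets in the table. Of these, 59 are carriers, their heavy chains or relatives of carriers, and 1, SLC7A6OS, is named only for lying opposite SLC7A6. The families held 7 members for SLC1A, 2 for SLC3A, 14 for SLC7A, 3 for SLC43A, 4 for SLC36A, 18 for SLC6A and 12 for SLC38A. The SLC6A members include carriers of monoamines, GABA, taurine, betaine and creatine, which are not protein-building amino acids, and SLC43A3 is a carrier of purine bases.

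The arrays compare K562 cells with a miR-543 vector, which the labels call miR-543 overexpressed, and K562 cells with a control vector, 3 arrays each. K562 is an established human erythroleukaemia line, and the labels give bone marrow as its tissue. Cells of both groups carried a vector. Neither the vector, the way it was delivered, the time since delivery nor whether the cells were a pool or a clone is given in the sources used here. The labels do not say that replicates were separate cultures, so p-values reflect the variation among these arrays alone, part of which can be technical. The mature miR-543 in RefSeq (GRCh38.p14, chr14:101032033-101032054, plus strand) is printed because it is the agent that separates the groups, with its seed, bases 2 to 8, in capitals.
hsa-miR-543: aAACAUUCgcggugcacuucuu

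Cells take up amino acids through carriers that differ in substrate, in the ion that drives them and in the membrane they occupy. Light chains of the SLC7 family form heteromeric transporters, in which a disulphide bond links them to a heavy chain of the SLC3 family that brings the complex to the plasma membrane and in which the light chain moves the substrate. Such transporters are mostly exchangers, so that a neutral amino acid leaving the cell, often glutamine, pays for the entry of leucine or another essential amino acid. Sodium-coupled carriers of SLC1, SLC6 and SLC38 load the cell with the amino acids that are exchanged. Leukaemia lines and red cell precursors draw on these routes for protein synthesis, for haem, which is built from glycine, and for glutathione, which needs cystine.

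Values are log2 signals as deposited, and a log2 change is the mean with the miR-543 vector minus the mean with the control vector. Array medians lay between 5.99 and 6.01, and Pearson's r across probe sets was 0.9931 to 0.9951 between arrays of different groups and 0.9945 to 0.9957 within groups. All 9 measured genes of 12 listed for the erythroid identity of K562 lay above the median of all probe set means, 5.9975, among them HBE1, HBZ, GATA1 and TFRC. The summed signal of that list was 18.27 to 18.40 with the miR-543 vector and 18.06 to 18.26 with the control vector, with 0 genes called by limma. These groups were only just apart, the lowest miR-543 sum being 18.2661 and the highest control sum 18.2606. The largest log2 changes of the list were 0.66 for KLF1 and 0.41 for TAL1 (limma adjusted p = 0.106 and 0.371). The median of the list was 0.30, and only TFRC lay below 0, at -0.08. Most mature myelomonocytic and stromal genes lay low, with 1 of 7 above that median in each list (LYZ and COL1A2). Most lymphoid genes also lay low, with 2 of 7 above it (CD3D and CD79A). The summed signal of the lymphoid genes was 11.16 to 11.52 with the miR-543 vector and 10.60 to 10.93 with the control vector, again without overlap and with 0 genes called. That sum is carried by CD3D, with a log2 change of 0.64 (adjusted p = 0.184), while the median log2 change of the 7 lymphoid genes was -0.04 and CD3E, MS4A1, CD4 and CD8A lay below 0. That of the myelomonocytic genes was 15.08 to 15.36 with the miR-543 vector and 15.08 to 15.23 with the control vector, and that of the stromal genes 9.29 to 9.63 with the miR-543 vector and 8.90 to 9.43 with the control vector. Of 8 epithelial genes 5 lay above the median, and their summed signal was 15.89 to 15.93 with the miR-543 vector and 15.84 to 15.91 with the control vector. The part of these markers in the results below was not tested.

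SLC7A8 (probe set TC1400008705.hg.1, chromosome 14), the light chain LAT2 that carries large and small neutral amino acids, was the 1 member past the threshold, and its mRNA rose. With the miR-543 vector its signal was 9.95, 9.96 and 9.75, against 8.84, 8.81 and 9.04 with the control vector. The 3 miR-543 arrays lay above all control arrays, and the gap between the groups was wider than the spread within either. The mean was 9.89 ± 0.12 with the miR-543 vector and 8.90 ± 0.12 with the control vector (SD, n = 3 each), a log2 change of 0.99 and thus 199% of the level with the control vector (SE 0.14, 95% interval 0.67 to 1.31), with a limma adjusted p of 0.0142. The call was lost in 4 of the 6 fits that left out 1 array: the adjusted p was 0.0768 and 0.0695 without miR-543 vector replicates 1 and 2, and 0.0877 and 0.0704 without control vector replicates 1 and 2, while the log2 change stayed between 0.95 and 1.06 in all 6. In bulk RNA, more cells of a type and more RNA per cell cannot be told apart.

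**Figure D1:**
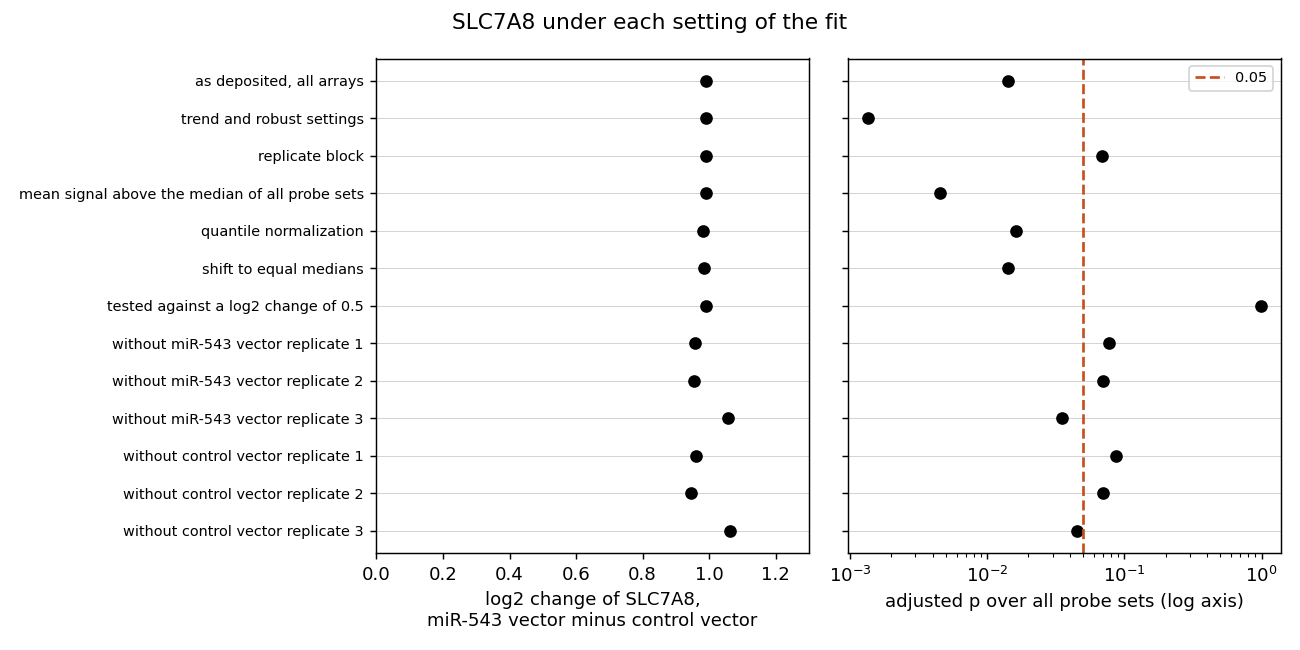
Log2 change of SLC7A8, miR-543 vector minus control vector (left), and its limma adjusted p over all probe sets on a log axis (right), each point being 1 setting of the fit and the dashed line 0.05. The change lies between 0.95 and 1.06 in all 13 settings, while the adjusted p lies above 0.05 in 6 of the 12 alternatives.

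Of the 60 members 1 was called at an adjusted p under 0.05 (1.67%, 1 higher and 0 lower), beside 0.569% of all probe sets, 0.131% of them called as higher and 0.438% as lower. At an unadjusted p under 0.05 there were 7 members (11.7%), beside 10.6% of all probe sets, so this share lay near the background. The 3 arrays of the miR-543 vector lay on 1 side of the 3 control arrays for 13 members (21.7%), 8 above and 5 below, beside 15.4% of all probe sets, 7.89% above and 7.5% below. Among members with a signal above the median of all probe sets such a parting was seen for 6 of 26 (23.1%), near the 19.8% of all probe sets in that range, and among those below it for 7 of 34 (20.6%), beside 11%. Those above were SLC1A1, SLC1A5, SLC3A2, SLC6A16, SLC7A8, SLC7A11, SLC7A13 and SLC36A2, and those below were SLC1A7, SLC6A2, SLC7A4, SLC36A4 and SLC38A1. The median log2 change was 0.07 over the members and 0.01 over all probe sets, and the median of its size without sign was 0.14 in each.

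**Figure D2:**
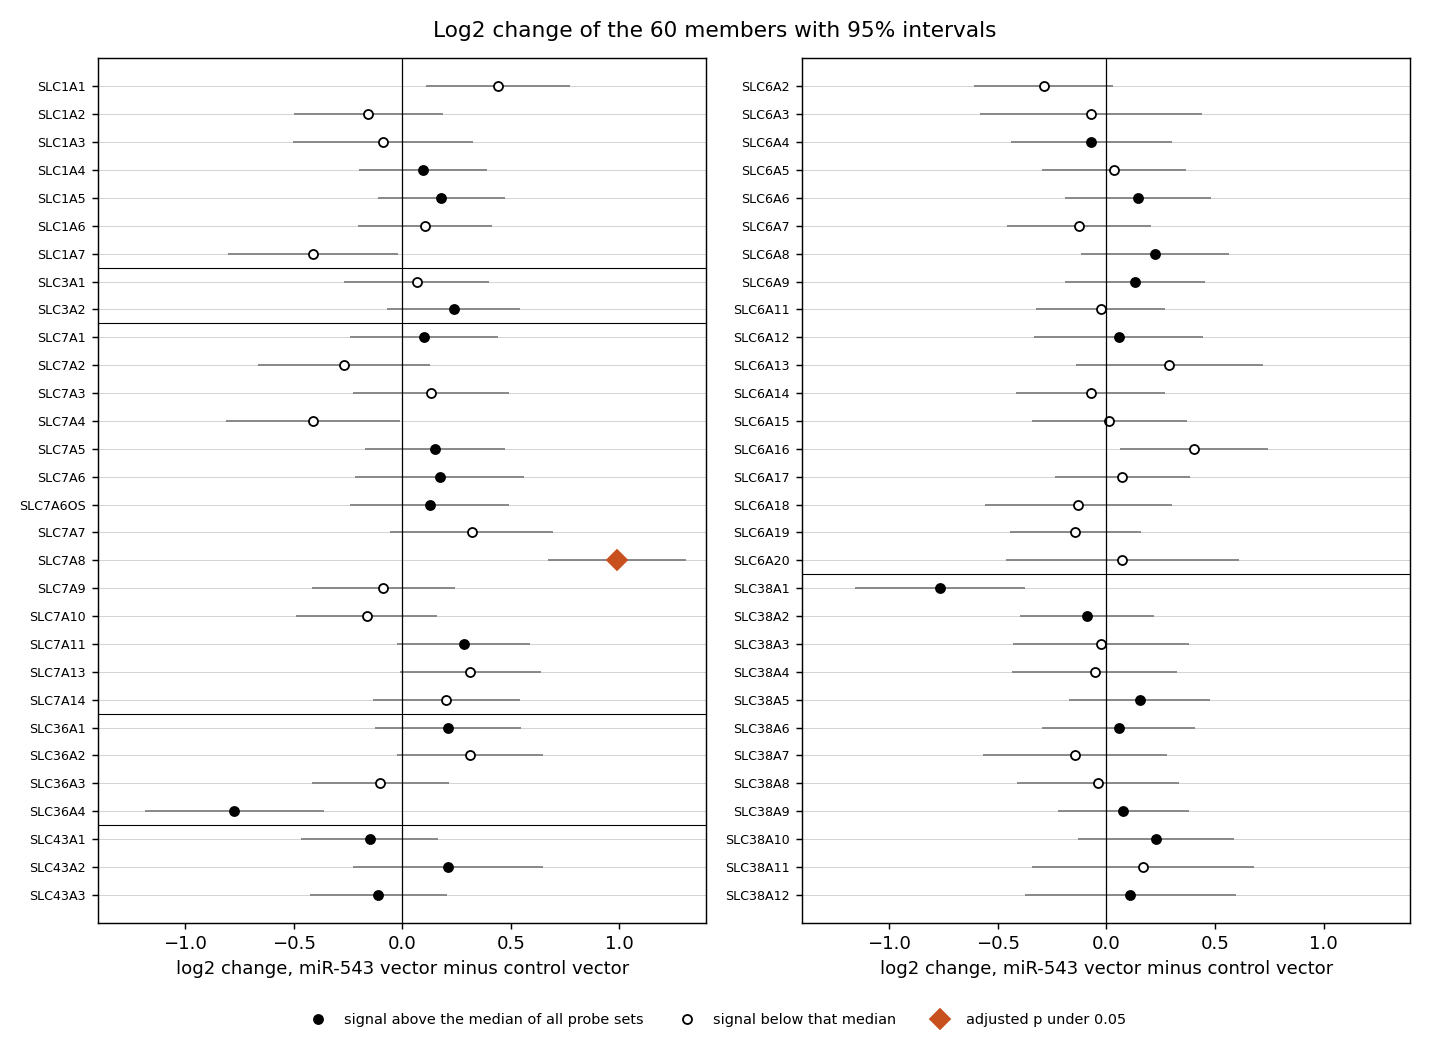
Log2 change of each member, miR-543 vector minus control vector (x axis), with the 95% interval of the limma fit as a bar, grouped by family with lines between families. SLC7A8, at 0.99, is the 1 member past an adjusted p of 0.05 (diamond), SLC36A4 and SLC38A1 lie lowest at -0.77 each, and open circles mark the 34 members with a signal below the median of all probe sets.

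The intervals give a range for the change in log2 signal of the other members, which at low signal need not bound the change in mRNA. The 95% interval of the log2 change had a median width of 0.34 to either side of the value (0.29 to 0.54 over the members). For 57 of the 60 members it lay wholly within a 2-fold change in either direction, the exceptions being SLC7A8, SLC36A4 and SLC38A1. The size of a fold is less certain for the 34 members whose mean signal lay below the median of all probe sets. Of the 26 members above it 23 had such an interval. A p that missed the threshold does not show that the mRNA was the same in both groups.

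**Figure D3:**
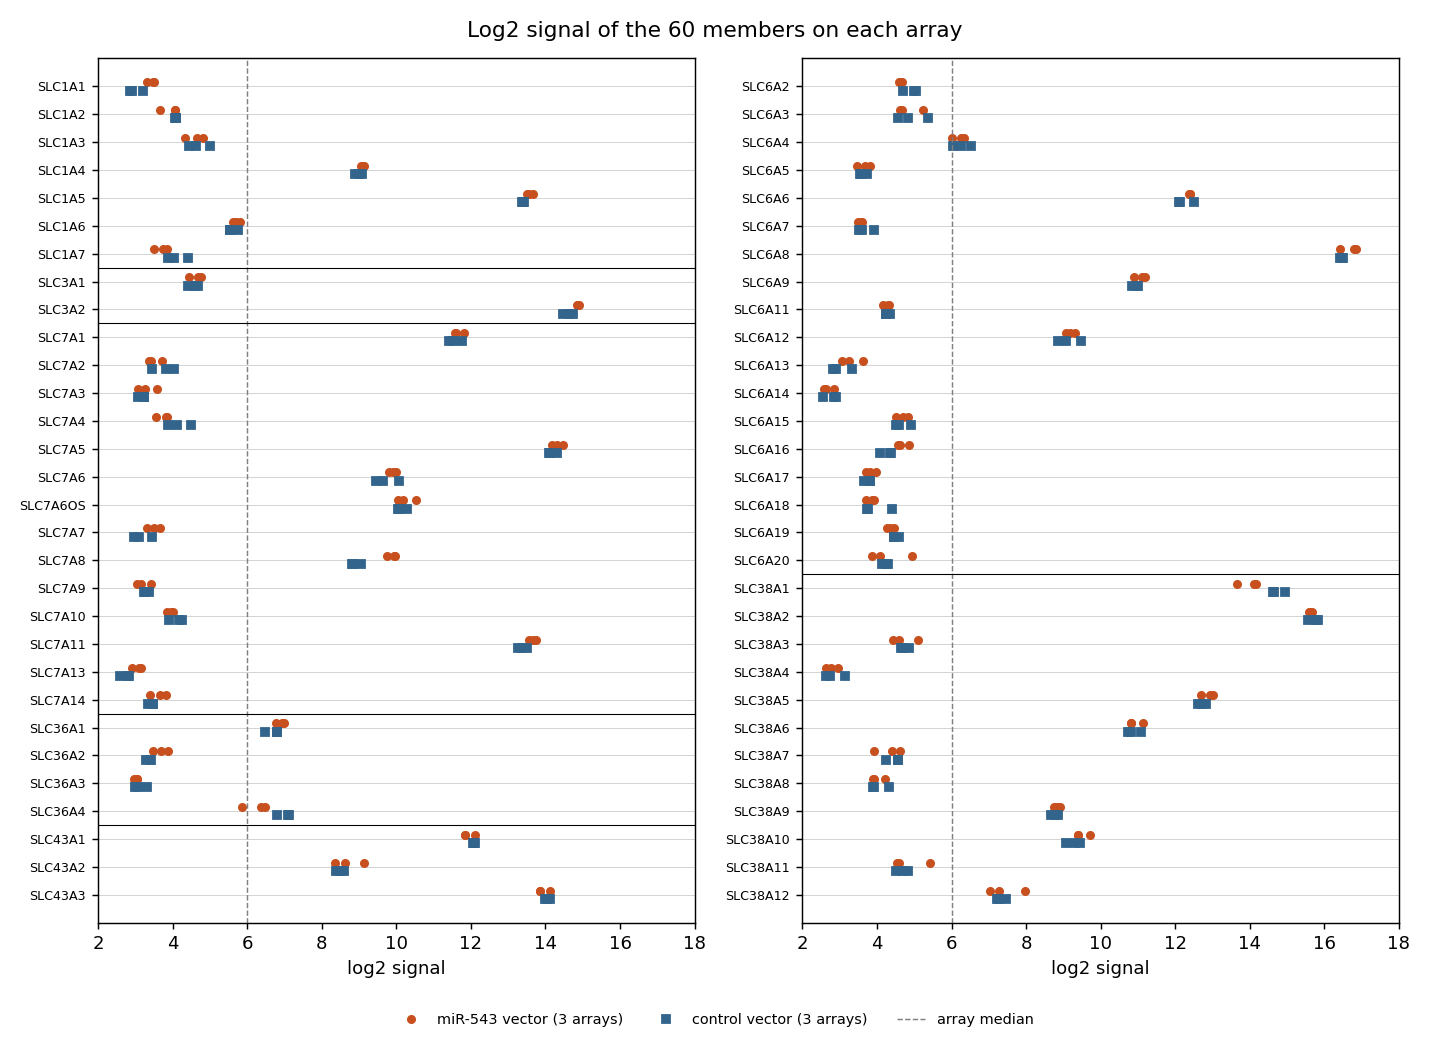
Log2 signal of each member on each of the 6 arrays (x axis), circles for the 3 miR-543 vector arrays and squares for the 3 control vector arrays, with the array median as a dashed line. Of the 60 members 26 lie above the median of all probe sets, and the groups are clearly apart for SLC7A8, with the miR-543 arrays at 9.75 to 9.96 and the control arrays at 8.81 to 9.04; signals of different genes are read by different probes and are not set against each other.

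The light chains of SLC7A8's own kind were examined beside it. SLC7A5, the light chain LAT1 that brings leucine and other large neutral amino acids into growing cells, had signals of 14.31, 14.48 and 14.18 with the miR-543 vector and 14.11, 14.10 and 14.31 with the control vector. The groups overlapped, and the log2 change was 0.15 (SE 0.15, 95% interval -0.17 to 0.47, limma adjusted p = 0.783). To ask whether the LAT2 and LAT1 genes changed unequally, the log2 signal of SLC7A5 was subtracted from that of SLC7A8 on each array. This difference was -4.36, -4.52 and -4.43 with the miR-543 vector and -5.27, -5.29 and -5.27 with the control vector, and only its shift between the groups is read, since the probes differ. The shift was 0.84, with a mean of -4.44 ± 0.080 with the miR-543 vector and -5.28 ± 0.012 with the control vector (SD, n = 3 each), and every miR-543 array lay above every control array. By a two-sided exact permutation test p was 0.1, and since no smaller value is possible with 3 arrays in each group, this test could not pass 0.05. Both genes were known from earlier results of these arrays, and SLC7A8 is the member called on them. A parting of the groups was therefore largely given beforehand, and the test adds no separate support for the rise of SLC7A8. Probes for SLC7A5 may also read its pseudogenes.

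SLC7A6, a light chain (y+LAT2) that exchanges cationic for neutral amino acids, had signals of 9.98, 9.92 and 9.79 with the miR-543 vector and 9.65, 9.45 and 10.07 with the control vector. Control vector replicate 3 lay above all 3 miR-543 arrays, and the log2 change of 0.17 was within the spread (adjusted p = 0.794). SLC7A11, the light chain xCT that exchanges cystine for glutamate, had signals of 13.67, 13.74 and 13.57 with the miR-543 vector against 13.27, 13.50 and 13.36 with the control vector. Its groups did not overlap, by a margin of less than the spread within the control group, and the log2 change of 0.28 (95% interval -0.02 to 0.59) did not pass (limma adjusted p = 0.518). The remaining light chains lay below the median of all probe sets.

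SLC7A13 (AGT1), a light chain for aspartate, glutamate and cystine in kidney, was at 3.10, 2.90 and 3.16 with the miR-543 vector and 2.58, 2.80 and 2.84 with the control vector. Its groups were parted by a narrow margin, and the log2 change of 0.31 did not pass (limma adjusted p = 0.493). SLC7A7 (y+LAT1), which like SLC7A6 exchanges cationic for neutral amino acids, was at 3.67, 3.49 and 3.30 with the miR-543 vector and 3.10, 2.96 and 3.44 with the control vector. Control vector replicate 3 lay among the miR-543 arrays (log2 change 0.32, adjusted p = 0.555). SLC7A9 (b0,+AT), the light chain of renal cystine uptake, was at 3.41, 3.14 and 3.03 with the miR-543 vector and 3.23, 3.36 and 3.25 with the control vector, and the groups overlapped (log2 change -0.09, adjusted p = 0.896). SLC7A10 (Asc-1), a carrier of small neutral amino acids, was at 3.86, 4.02 and 3.95 with the miR-543 vector and 4.16, 4.25 and 3.91 with the control vector. Control vector replicate 3 again lay among the miR-543 arrays (log2 change -0.16, adjusted p = 0.757). Over the 8 light chains the median change was 0.23, 6 being positive and 2 negative.

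The heavy chain SLC3A2, also known as 4F2hc or CD98, is the partner of SLC7A5, SLC7A6, SLC7A7, SLC7A8, SLC7A10 and SLC7A11. Its signals were 14.85, 14.90 and 14.86 with the miR-543 vector and 14.67, 14.48 and 14.75 with the control vector. The miR-543 arrays lay above all control arrays and close to each other, but the log2 change of 0.24 (SE 0.14, 95% interval -0.07 to 0.54) did not pass (limma adjusted p = 0.595). The interval of SLC7A8, 0.67 to 1.31, and that of SLC3A2 did not overlap, and no test of the difference was made. SLC3A1, the heavy chain rBAT that pairs with SLC7A9 and SLC7A13 in kidney and gut, lay low, at 4.77, 4.45 and 4.69 with the miR-543 vector and 4.42, 4.60 and 4.69 with the control vector. Its groups overlapped (log2 change 0.07, adjusted p = 0.921), and the change was -0.0083 without control vector replicate 1.

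**Figure D4:**
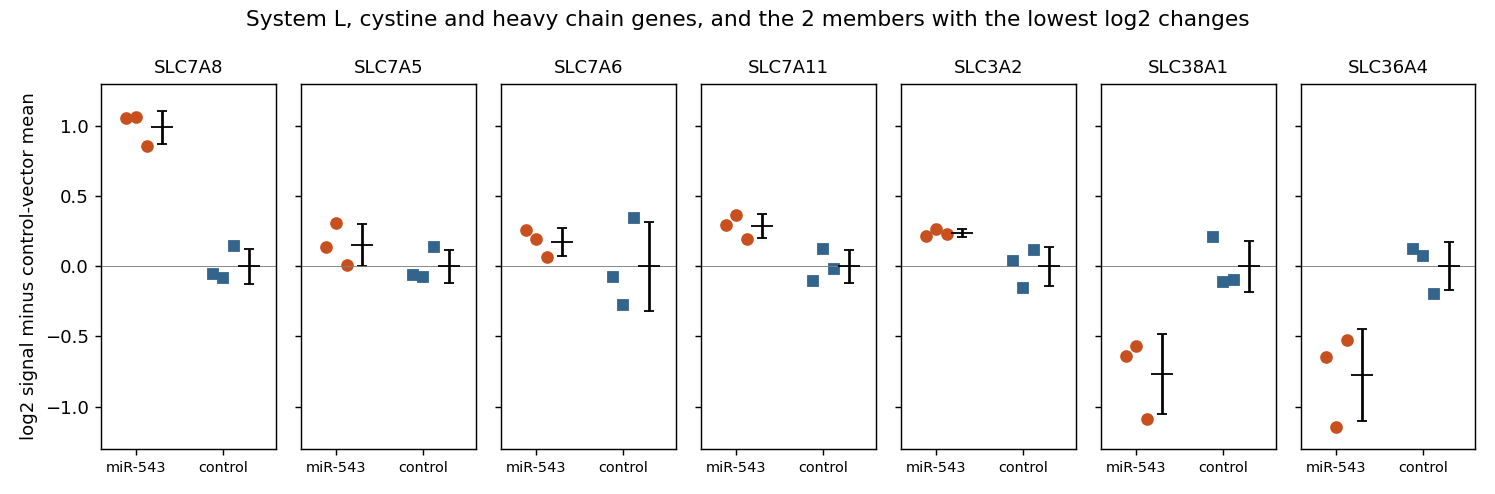
Log2 signal minus the mean of the 3 control vector arrays (y axis) for SLC7A8, 3 other light chains, the heavy chain SLC3A2, and SLC38A1 and SLC36A4, with 1 point per array and the group mean and SD as bars, miR-543 vector left and control vector right. SLC7A8 lies near 1 on the 3 miR-543 arrays and its partner SLC3A2 at 0.24, while SLC38A1 and SLC36A4 lie below their control arrays with a mean of -0.77 each.

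The sequences around the starts of SLC7A8 and SLC7A5 are printed because these closely related transporters had log2 changes of 0.99 and 0.15. They come from RefSeq (GRCh38.p14), which had windows of 250 bases before to 50 after a start for 46 of the 60 members, 68 windows in all. SLC7A8 has 4 windows, of which the farthest upstream (chr14:23183611-23183910, minus strand) and the farthest downstream (chr14:23154344-23154643, minus strand) are shown, and SLC7A5 has 1 (chr16:87869458-87869757, minus strand). Capitals mark CpG dinucleotides, the substrate of the DNA methylation that TET enzymes, named in the series title, reverse. Methylation was not measured in the files used here, and the probe set does not tell which start was in use.
SLC7A8 farthest upstream start: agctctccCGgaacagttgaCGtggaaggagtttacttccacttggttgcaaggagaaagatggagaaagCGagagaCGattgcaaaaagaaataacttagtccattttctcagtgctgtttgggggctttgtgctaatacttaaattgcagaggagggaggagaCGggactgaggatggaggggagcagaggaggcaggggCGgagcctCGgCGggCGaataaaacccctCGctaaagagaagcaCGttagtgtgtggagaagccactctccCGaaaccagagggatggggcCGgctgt
SLC7A8 farthest downstream start: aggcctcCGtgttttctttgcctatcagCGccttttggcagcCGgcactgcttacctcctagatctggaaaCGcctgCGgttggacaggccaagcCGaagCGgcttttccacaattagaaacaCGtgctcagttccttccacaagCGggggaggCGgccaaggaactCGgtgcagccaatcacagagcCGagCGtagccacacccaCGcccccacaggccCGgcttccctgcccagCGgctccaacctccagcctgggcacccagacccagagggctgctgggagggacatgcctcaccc
SLC7A5: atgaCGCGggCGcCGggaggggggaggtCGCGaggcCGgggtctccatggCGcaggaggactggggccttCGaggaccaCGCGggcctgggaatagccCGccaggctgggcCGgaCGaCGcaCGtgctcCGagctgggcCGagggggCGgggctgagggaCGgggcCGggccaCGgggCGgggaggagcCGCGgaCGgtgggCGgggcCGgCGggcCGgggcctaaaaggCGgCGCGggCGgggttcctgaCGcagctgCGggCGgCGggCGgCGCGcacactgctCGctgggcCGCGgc
The printed SLC7A8 windows held 13 and 16 CpG dinucleotides and the SLC7A5 window 44, beside medians of 17.5 in the 68 member windows and 14 in all 35116 windows. In the same order their GC content was 53%, 63% and 80.3%, beside medians of 62.5% and 58.7%. The other 2 SLC7A8 windows, which are not printed, held 3 and 2 CpG dinucleotides at a GC content of 51.7% and 55%, so the CpG count differs widely between the starts of this gene. The E-box CACGTG, a site that MYC can bind, was found in the downstream SLC7A8 window and in the SLC7A5 window, and in 14.7% of member windows and 7.26% of all windows.

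Among the cationic carriers, SLC7A1 (CAT1), a broadly used arginine and lysine carrier, was at 11.56, 11.61 and 11.81 with the miR-543 vector and 11.51, 11.40 and 11.77 with the control vector. The groups overlapped, and its log2 change was 0.10 (adjusted p = 0.876). SLC7A2, SLC7A3, SLC7A4 and SLC7A14 lay below the median of all probe sets. SLC7A4, a relative of the cationic carriers, was at 3.56, 3.82 and 3.86 with the miR-543 vector against 4.49, 4.11 and 3.87 with the control vector, so that the groups were parted by 0.01 (log2 change -0.41, adjusted p = 0.465). SLC7A6OS, the gene opposite SLC7A6 that is no carrier, had a log2 change of 0.13 (adjusted p = 0.851). Over the 14 SLC7A members the median change was 0.14, 10 being positive and 4 negative, and for the 6 members above the median signal the range was 0.10 to 0.99.

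SLC38A1 and SLC36A4 had the lowest log2 changes of the 60, and neither passed. SLC38A1 (SNAT1, probe set TC1200010516.hg.1, chromosome 12), a sodium-coupled system A carrier that brings glutamine and other neutral amino acids into the cell, had signals of 14.10, 14.17 and 13.65 with the miR-543 vector, against 14.95, 14.63 and 14.64 with the control vector. The groups did not overlap, and miR-543 vector replicate 3 was the lowest. The mean was 13.97 ± 0.28 with the miR-543 vector and 14.74 ± 0.18 with the control vector (SD, n = 3 each), a log2 change of -0.77 and thus 58.8% of the level with the control vector (SE 0.18, 95% interval -1.16 to -0.38), with a limma adjusted p of 0.123. With the trend and robust settings the adjusted p of SLC38A1 was 0.00444, and over its 12 alternatives it ranged from 0.00444 to 1. SLC36A4 (PAT4, probe set TC1100011966.hg.1, chromosome 11), a carrier of proline and tryptophan, was at 6.36, 5.86 and 6.48 with the miR-543 vector and 7.13, 7.08 and 6.81 with the control vector. Its groups did not overlap, and the log2 change was -0.77 (SE 0.19, 95% interval -1.18 to -0.36, limma adjusted p = 0.147). Its signals lay close to the array medians, so the size of its difference is less certain.

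SLC38A1 lies on chromosome 12 beside SLC38A2 and SLC38A4, with no other protein-coding gene between them in the RefSeq order. SLC38A2 (SNAT2), the system A carrier known to be induced when amino acids run short, was at 15.62, 15.68 and 15.60 with the miR-543 vector and 15.77, 15.56 and 15.84 with the control vector. The groups overlapped and the log2 change was -0.09 (95% interval -0.40 to 0.22, adjusted p = 0.878). SLC38A4, the remaining system A carrier, had a mean of 2.78 with the miR-543 vector and 2.84 with the control vector (log2 change -0.05). The 3 neighbours thus had log2 changes of -0.77, -0.09 and -0.05, and whether they differ was not tested. The signal of SLC38A4 lay below the median of all probe sets, where its change need not bound the change in mRNA. A window around a start of SLC38A1 is printed because it holds a match to TGATGNAA (either strand), the core of the element through which ATF4 and C/EBP factors drive amino acid response genes. It is the downstream of 2 windows (chr12:46266467-46266766, minus strand), with CpG dinucleotides in capitals.
SLC38A1: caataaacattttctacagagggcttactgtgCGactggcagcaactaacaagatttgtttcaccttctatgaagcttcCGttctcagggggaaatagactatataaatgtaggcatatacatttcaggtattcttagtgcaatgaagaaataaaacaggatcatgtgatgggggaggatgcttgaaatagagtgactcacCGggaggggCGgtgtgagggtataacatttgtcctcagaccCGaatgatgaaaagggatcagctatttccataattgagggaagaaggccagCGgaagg
It holds 6 CpG dinucleotides and also a match to the TATA box TATAAA. The upstream SLC38A1 window, which is not printed, held 22 CpG dinucleotides at a GC content of 62.3% and a match to neither motif. TGATGNAA was found in windows of 6 members, SLC1A3, SLC1A4, SLC1A5, SLC38A1, SLC3A2 and SLC7A1, or 8.82% of member windows, beside 3.62% of all windows. Log2 changes of these members were -0.09, 0.10, 0.18, -0.77, 0.24 and 0.10. A match is a description of letters and not a bound site.

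Of the system N carriers, SLC38A5 (SNAT5), which moves glutamine, glycine and serine, was at 12.92, 13.01 and 12.69 with the miR-543 vector and 12.62, 12.71 and 12.83 with the control vector, a log2 change of 0.15 (adjusted p = 0.777) with overlapping groups. SLC38A3 (SNAT3) lay low, with a log2 change of -0.03. SLC38A9, a lysosomal arginine sensor that signals to mTORC1, had means of 8.84 ± 0.080 with the miR-543 vector and 8.76 ± 0.096 with the control vector (SD, n = 3 each), a log2 change of 0.08. SLC38A6, SLC38A7, SLC38A8, SLC38A10, SLC38A11 and SLC38A12 (also listed as TMEM104) had log2 changes between -0.14 and 0.23. The 12 SLC38A members split into 6 above 0 and 6 below, with a median of 0.015.

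Of the proton-coupled carriers, SLC36A1 (PAT1), which lets small amino acids out of lysosomes, had means of 6.90 ± 0.12 with the miR-543 vector and 6.69 ± 0.19 with the control vector (SD, n = 3 each), a log2 change of 0.21 (adjusted p = 0.691). SLC36A2 and SLC36A3 are its neighbours on chromosome 5 and lay below the median of all probe sets. SLC36A2 (PAT2) was at 3.69, 3.88 and 3.46 with the miR-543 vector and 3.38, 3.29 and 3.42 with the control vector, groups parted by 0.04 (log2 change 0.31, adjusted p = 0.511). SLC36A3 had a log2 change of -0.10.

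The SLC1 family holds the glutamate carriers of brain and kidney and the ASC carriers of small neutral amino acids. SLC1A5 (ASCT2), a sodium-coupled glutamine exchanger of growing cells, was at 13.67, 13.50 and 13.57 with the miR-543 vector and 13.38, 13.40 and 13.42 with the control vector. The miR-543 arrays all lay above the control arrays, and the log2 change of 0.18 (95% interval -0.11 to 0.47) did not pass (limma adjusted p = 0.697). SLC1A4 (ASCT1), a serine and alanine carrier, had means of 9.09 ± 0.036 with the miR-543 vector and 8.99 ± 0.095 with the control vector (SD, n = 3 each), a log2 change of 0.10. The 5 glutamate carriers SLC1A1, SLC1A2, SLC1A3, SLC1A6 and SLC1A7 lay below the median of all probe sets. SLC1A1 (EAAT3) was at 3.50, 3.31 and 3.46 with the miR-543 vector and 3.20, 2.85 and 2.90 with the control vector, and SLC1A7 (EAAT5) at 3.85, 3.75 and 3.49 with the miR-543 vector and 3.87, 4.03 and 4.42 with the control vector. Their log2 changes were 0.44 and -0.41 (limma adjusted p = 0.332 and 0.456), and those of the other 3 lay between -0.16 and 0.10.

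SLC43 carriers work without sodium. SLC43A1 (LAT3), a carrier of leucine and other large neutral amino acids with a known role in red cell precursors, was at 12.12, 11.84 and 11.84 with the miR-543 vector and 12.06, 12.12 and 12.07 with the control vector. miR-543 vector replicate 1 equalled the highest control array and the other 2 lay below all of them, a log2 change of -0.15 (95% interval -0.46 to 0.16, adjusted p = 0.774). SLC43A2 (LAT4) had means of 8.70 ± 0.40 with the miR-543 vector and 8.49 ± 0.10 with the control vector (SD, n = 3 each), a log2 change of 0.21 in the opposite direction. SLC43A3, the purine base carrier, was at 14.12, 13.86 and 13.84 with the miR-543 vector and 14.13, 14.03 and 13.99 with the control vector (log2 change -0.11, adjusted p = 0.85).

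Of the 18 SLC6A members 0 were called by limma, 1 had an unadjusted p under 0.05, and the median log2 change was 0.025 with 10 above 0 and 8 below. SLC6A8, the creatine carrier, was at 16.84, 16.79 and 16.42 with the miR-543 vector and 16.41, 16.46 and 16.51 with the control vector. Replicates 1 and 2 of the miR-543 vector lay above and replicate 3 among the control arrays, a log2 change of 0.22 (adjusted p = 0.673), and its probes may read near-identical copies such as the pseudogene SLC6A10P. SLC6A6, the taurine carrier, was at 12.39, 12.37 and 12.40 with the miR-543 vector and 12.14, 12.09 and 12.50 with the control vector (log2 change 0.14, adjusted p = 0.802). SLC6A9 (GLYT1), which supplies glycine for haem in red cell precursors, had means of 11.06 ± 0.16 with the miR-543 vector and 10.93 ± 0.093 with the control vector (SD, n = 3 each), a log2 change of 0.13 (95% interval -0.19 to 0.45). SLC6A12 (BGT1), the betaine carrier, had a log2 change of 0.06, and SLC6A4, the serotonin carrier, one of -0.07.

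The other 13 SLC6A members lay below the median of all probe sets. Of these SLC6A16, an orphan carrier, was at 4.55, 4.86 and 4.62 with the miR-543 vector and 4.38, 4.36 and 4.08 with the control vector (log2 change 0.40, adjusted p = 0.396), without overlap. SLC6A2, the noradrenaline carrier, was at 4.61, 4.66 and 4.59 with the miR-543 vector and 4.98, 4.70 and 5.05 with the control vector (log2 change -0.29, adjusted p = 0.527), also without overlap. SLC6A3, SLC6A5, SLC6A7, SLC6A11, SLC6A13, SLC6A14, SLC6A15, SLC6A17, SLC6A18, SLC6A19 and SLC6A20 had log2 changes between -0.14 and 0.29, with overlapping groups.

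Members differed in their spread as well as their change. The SD over 3 arrays ran from 0.015 (SLC6A6) to 0.56 (SLC6A20) with the miR-543 vector and from 0.020 (SLC1A5) to 0.41 (SLC6A3) with the control vector, with medians of 0.16 in each group. Among the 26 members above the median signal, the median log2 change was 0.13, with 20 above 0 and 6 below. All 10724 probe sets above it had a median of 0.0033, with 5401 above 0 and 5259 below. The 34 members below the median signal did not share this lean, with a median of -0.03, 15 above 0 and 19 below. Among the 26 members the lean was uneven over the arrays. The median deviation from the control mean was 0.14 and 0.13 on miR-543 vector replicates 1 and 2, with 21 and 19 of the 26 members above that mean, and -0.035 on replicate 3, with 11 above it. On control vector replicates 1, 2 and 3 the median deviation was -0.05, -0.015 and 0.033, with 9, 10 and 14 of the 26 members above the control mean. No such count per array was made over all probe sets.

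Genes that work beside the carriers gave 0 calls by limma among 132 measured of 150 listed, SLC38A9 being also a member. At an unadjusted p under 0.05 there were 17 (12.9%), beside 10.6% of all probe sets. Of the 132, 111 had a signal above the median of all probe sets, and among all probe sets in that range the share was 12.8%. Among 21 other amino acid carriers 11 changes lay above 0 (median 0.0033), and SLC66A1, the lysosomal exporter of cationic amino acids, had means of 10.46 ± 0.16 with the miR-543 vector and 9.98 ± 0.18 with the control vector (SD, n = 3 each; log2 change 0.48, limma adjusted p = 0.298), while the log2 change was 0.35 for SLC25A18, a mitochondrial glutamate carrier. Of 35 genes of amino acid sensing by mTORC1, among them the member SLC38A9, 22 lay above 0 (median 0.08). LAMTOR5, a subunit of the lysosomal Ragulator complex, and TSC2, which holds mTORC1 back, each had a log2 change of 0.55 (limma adjusted p = 0.227 and 0.28). Of 18 genes of the GCN2 and ATF4 response 9 lay above 0 and 9 below (median -0.015), with -0.74 for the stress-induced NUPR1 (adjusted p = 0.185) and -0.35 for ATF3.

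Among 16 genes of amino acid synthesis 9 lay above 0 (median 0.0083), with log2 changes of -0.75 for PYCR3, an enzyme of proline synthesis, and -0.50 for ASS1, which makes argininosuccinate (limma adjusted p = 0.219 and 0.328). Of 13 genes listed for glutamine and branched-chain breakdown 7 lay above 0 (median 0.02), with -0.41 for PRODH and -0.23 for DLD. That list also holds enzymes that break down other amino acids, namely PRODH (proline), ARG1, ARG2, GLDC and ASPG. Of 15 genes listed for cystine and glutathione, among them redox regulators and enzymes, 8 lay below 0 (median -0.04), with -0.51 for the antioxidant regulator NFE2L2 (11.55 ± 0.047 with the miR-543 vector and 12.06 ± 0.34 with the control vector, SD, n = 3 each, limma adjusted p = 0.35) and -0.39 for GGCT. Of 17 genes listed for cytosolic aminoacyl-tRNA synthetases, among them AIMP1, which is no synthetase, 12 lay below 0 (median -0.07), with -0.35 for NARS1 and -0.27 for RARS1. LAMTOR5 and NUPR1 passed with the trend and robust settings, the 2 list genes to pass in any of the 12 alternatives.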

How the data were processed

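The data are 1 table of log2 signals, to 2 decimals, that the authors deposited for 6 arrays hybridised with biotin-labelled cDNA from total RNA. Transcriptome Analysis Console 4.0 and RMA made them, per the submitters' processing notes. RMA subtracts background, brings arrays to 1 scale and joins the probes of a transcript cluster. Neither genome build nor annotation release is given in the sources used here. Signals were not sorted by detection calls, and the number of arrays limits the precision. The table held 0 columns of other samples.

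Platform annotation gave 1 symbol for 17709 probe sets and none for 3739, and all 17709 gene identifiers matched RefSeq (GRCh38.p14). All 21448 probe sets were fitted with limma 3.58.1 in R 4.3.3 (lmFit, eBayes without trend, two-sided, no block or filter), with Benjamini-Hochberg adjustment over all of them. SD is over 3 arrays and SE is the moderated standard error. The steps were tested on simulated data. Sequences were scanned on both strands.

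Values per array are given for called members, the 12 smallest p-values, the 12 highest mean signals, SLC3A1, SLC3A2 and the light chains, and otherwise the smallest p of a family. From the lists, called genes and the 2 smallest p-values are named. Members and lists were chosen with earlier results of these data known. Replicate numbers are in the labels, and deviations of same-numbered arrays correlated at 0.0948, -0.0527 and 0.0181. Those of differently numbered arrays correlated at -0.094 to 0.0655. No pairing was used, but with 3 arrays per group this check cannot show that the arrays were unpaired.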

Additional observations from a re-analysis of the deposited data

How the results depend on the processing

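Of the 12 alternative fits, the count of members called was 1 with the filter on mean signal, quantile normalization or a shift to equal medians, 2 with the trend and robust settings (SLC7A8 and SLC38A1), 0 with the replicate block, 0 with a test against 0.5 on the log2 scale, and 0 to 1 when an array was left out. The count over all probe sets was 122 as reported, 252 with trend and robust settings, 71 with the replicate block (61 of them among the 122), 168 with the filter, 120 after either rescaling, 12 against 0.5 and 34 to 59 without 1 array. The log2 change of SLC7A8 was 0.99 with the block and against 0.5, where its adjusted p was 0.0692 and 0.989, and 0.95 to 1.06 without 1 array (0.035 to 0.0877). The check of deviations could not settle whether replicate numbers pair the arrays. Genes of the lists called numbered 0, and 2 with trend and robust settings. The shift of SLC7A8 against SLC7A5 was 0.80 to 0.88 without 1 array (exact permutation p = 0.2, the smallest that 3 against 2 can give) and 0.81 and 0.84 after rescaling. Members without overlap numbered 13, and 6 above the median signal (23.1%, beside 19.8% of all probe sets above it). Of the 26 named members 25 kept their sign in every alternative that gave a value and SLC3A1 did not, with a range of -0.0083 to 0.16 without 1 array. Each symbol had 1 row, so taking the lowest-mean row changed nothing. The cause of these shifts was not tested, except that leaving out an array leaves fewer arrays.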
